A study of Mus musculus with 6 samples.

Results

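A set of 10 genes for ligands and receptors of immune checkpoints and costimulation were examined in tumor-associated macrophages (TAMs), out of 55421 genes counted. They were chosen by name: the PD-1 ligand genes Cd274 and Pdcd1lg2, the other B7 family genes Cd80, Cd86, Icosl, Cd276 and Vsir, and the further checkpoint genes Havcr2, Lgals9 and Pvr. All 10 were in the count table and all 10 passed the filter on low counts, which left 14469 genes for testing. Both groups of mice carried floxed Pdcd1 alleles (Pdcd1f/f), and the Pdcd1f/fLysMCre group also carried Cre recombinase under the lysozyme (LysM) promoter, which is active in myeloid cells in general and not in TAMs alone. Mice were 8 to 12 weeks old when fibrosarcoma cells (M17 in the labels, MC17-51 in the methods) were implanted. TAMs were taken from the tumors on day 15 by sorting live CD45+, CD11b+, F4/80+ and Ly6G- cells. Each genotype had 3 libraries. The sources used here do not say whether a library came from 1 mouse or from pooled mice, so p-values measure the spread between these samples, which may be technical. Every library held both Y-linked RNA and Xist, with values given below, and pooling was not tested. Per the methods of the paper, males and females were used in equal numbers in every experiment.

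T cells need a signal through CD28 beside that of the T cell receptor, and macrophages provide it with CD80 (B7-1) and CD86 (B7-2), which also bind the inhibitory receptor CTLA-4. PD-L1, encoded by Cd274, and PD-L2, encoded by Pdcd1lg2, bind PD-1 and dampen T cell activation, and PD-L1 also pairs with CD80 on the surface of the same cell. In tumors, macrophages are a major source of these ligands, and interferon-gamma from T cells is a well-known inducer of PD-L1. The question here was whether the ligand genes of TAMs differed between mice with and without Cre-mediated deletion of Pdcd1, the gene for PD-1, in myeloid cells.

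Libraries held 41833823 to 51417209 counts, at which 3 counts correspond to 0.0583 to 0.0717 CPM (counts scaled to the library total, counting error only). Pdcd1, the targeted gene, had 10, 12 and 15 raw counts in Pdcd1f/f TAMs and 7, 16 and 11 in Pdcd1f/fLysMCre TAMs, and its log2 fold change was -0.25 (SE 0.45, edgeR adjusted p = 0.771). At this depth the deletion could not be checked from the gene's total count, which also takes in exons outside the deleted part. Lyz2, the gene into which Cre is inserted in LysMCre mice, had 207974 to 225226 normalized counts in Pdcd1f/f and 404.8 to 465.4 in Pdcd1f/fLysMCre libraries. Macrophage markers were abundant in every library, but 5 of the 8 on the list (Adgre1, Csf1r, Mertk, C1qa and C1qb) fell and none rose in the edgeR test described below, in which 3.01% of all genes tested were lower and 2.42% higher. Of these markers, Mertk passed in all 6 fits with 1 library left out and Csf1r in 2. The log2 fold change of Csf1r was -0.38 to -0.27 over the 6 fits. The summed level of the 8 markers was 6004 to 7027 CPM in Pdcd1f/f and 4820 to 5315 CPM in Pdcd1f/fLysMCre TAMs, and its part in the results on the ligand genes was not tested. The 8 dendritic cell markers summed to 13.3 to 14.6 and 12.7 to 15.7 CPM, most of it from Fscn1, Ccr7 and Ccl22. Of the 6 tested none passed, with log2 fold changes of -0.26 for Fscn1, 0.03 for Ccr7, 0.15 for Ccl22, 0.43 for Cd209a, 0.67 for Flt3 and 0.69 for Zbtb46 (median 0.29). The sum of 4 Y-linked genes was 1545 to 1914 normalized counts in Pdcd1f/f and 6267 to 7233 in Pdcd1f/fLysMCre libraries. Xist, which is expressed in female cells, had 17318 to 26511 normalized counts in Pdcd1f/f and 8530 to 13137 in Pdcd1f/fLysMCre libraries. Every library thus held both Y-linked RNA and Xist. The sexes of the mice behind the libraries and the genotype cannot be told apart. Pdcd1f/f replicate 1 and Pdcd1f/fLysMCre replicate 2 stood apart in that their deviations from the genotype mean fell with the GC content of genes (Spearman's rho of -0.575 and -0.486 over 14454 genes), while the other libraries had values between 0.117 and 0.508.

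The promoters of the PD-1 ligand pair and of the genes that passed the test, Cd80 and Icosl, are shown because the report turns on them. Of the 10 genes, 8 had an entry among the RefSeq promoters (GRCm38.p6), and Cd86 and Pvr did not match. Each sequence is the 250 bases before the RefSeq start, 5′ to 3′ on the gene's strand, which is the plus strand for all 4. Capitals mark matches, on either strand, to 3 motifs: the NF-kB consensus, an interferon-response-like motif (a pair of GAAA blocks with 2 bases of any kind between them) and the AP-1 motif TGANTCA. The windows are chr19:29367188-29367437 for Cd274, chr19:29410669-29410918 for Pdcd1lg2, chr16:38458683-38458932 for Cd80 and chr10:78069118-78069367 for Icosl. The RefSeq starts used for Cd80 and Icosl lie inside the GENCODE genes, which begin at positions 38455561 and 78069302, so the whole Cd80 window and the end of the Icosl window are within the gene.
Cd274: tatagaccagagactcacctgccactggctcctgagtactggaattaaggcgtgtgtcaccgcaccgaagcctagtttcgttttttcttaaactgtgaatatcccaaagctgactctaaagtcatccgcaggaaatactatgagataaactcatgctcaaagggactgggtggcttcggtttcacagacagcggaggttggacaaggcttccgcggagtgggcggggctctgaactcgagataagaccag
Pdcd1lg2: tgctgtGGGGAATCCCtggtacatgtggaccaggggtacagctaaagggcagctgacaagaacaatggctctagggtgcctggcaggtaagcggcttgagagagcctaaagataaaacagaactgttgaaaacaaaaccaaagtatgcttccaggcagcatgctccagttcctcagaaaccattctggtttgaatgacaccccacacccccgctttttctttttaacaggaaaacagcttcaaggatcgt
Cd80: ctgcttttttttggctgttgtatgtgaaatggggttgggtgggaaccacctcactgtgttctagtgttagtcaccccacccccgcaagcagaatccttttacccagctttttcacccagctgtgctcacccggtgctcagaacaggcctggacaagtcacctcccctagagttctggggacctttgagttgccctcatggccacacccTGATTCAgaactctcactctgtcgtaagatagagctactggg
Icosl: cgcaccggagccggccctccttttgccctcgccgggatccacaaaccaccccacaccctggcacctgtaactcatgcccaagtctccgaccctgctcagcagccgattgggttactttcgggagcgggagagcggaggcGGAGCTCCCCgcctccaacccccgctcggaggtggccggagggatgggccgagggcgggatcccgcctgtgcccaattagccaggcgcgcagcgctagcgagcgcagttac

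The Cd80 window held 1 AP-1 match, 42 to 36 bases before the start, and the Icosl window held 1 NF-kB match on the opposite strand, 111 to 102 bases before the start. Pdcd1lg2 had an NF-kB match at 244 to 235 bases, and no full match to the 3 motifs was found in the Cd274 window. Among the others, Havcr2 had an AP-1 match at 200 to 194 bases and Lgals9 an interferon-response-like match at 55 to 46 bases, while the windows of Cd276 and Vsir held none. The whole Cd276 window and the end of the Lgals9 window are also within the GENCODE gene. Of 32851 promoters of this length, 7.25% held the NF-kB consensus, 2.98% the pair of GAAA blocks and 6.75% TGANTCA. The absence of a match in Cd274 depends on motif length. Without its last base the interferon-response-like motif (GAAANNGAA) matches in the Cd274 and Lgals9 windows. This form was tried after the result of the full motif was seen, and its share of all promoters was not counted. The motifs do not overlap one another in these windows. A match describes the sequence and is not evidence of binding.

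Cd80 rose and Icosl fell in Pdcd1f/fLysMCre TAMs, and neither PD-1 ligand gene passed the test. By the quasi-likelihood test of edgeR, adjusted by Benjamini-Hochberg over all 14469 genes, 2 of the 10 ligand genes passed the threshold of 0.05, 1 in each direction. Over all genes tested 786 passed, or 5.43%, with 2.42% higher and 3.01% lower. The libraries of the genotypes did not overlap for 9 of the 10 genes, 6 with higher values in Pdcd1f/fLysMCre TAMs and 3 with lower ones, against 27.2% of all genes tested. The median log2 fold change of the 10 genes was 0.19, beside -0.0026 over all genes. Without Pdcd1f/f replicate 1 the number past the threshold was 6, with Cd274, Cd86, Vsir and Lgals9 added, and 3181 of all genes passed. Because RNA of a sorted population was measured, fewer cells expressing a gene and less RNA per cell cannot be told apart.

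**Figure D1:**
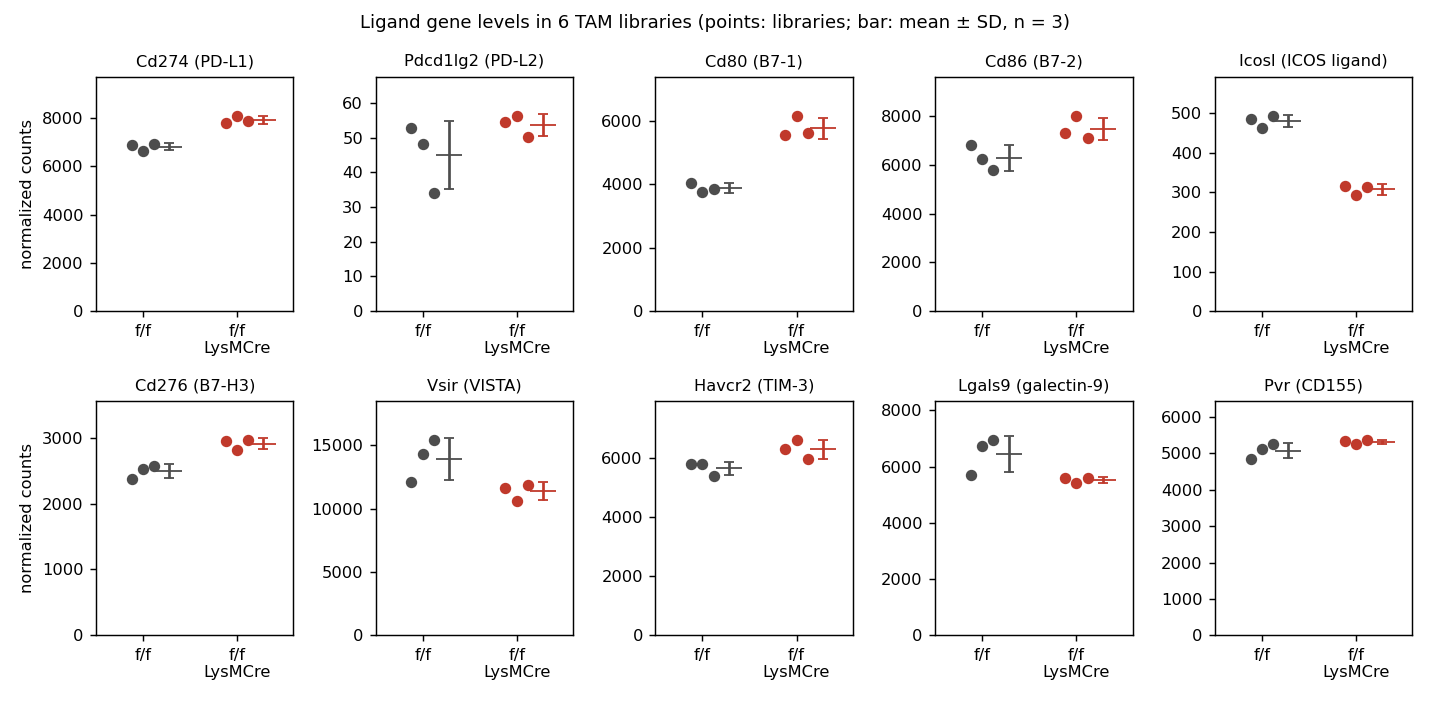
Normalized counts (y axis, from 0, a scale for each gene) of the 10 ligand genes in 3 Pdcd1f/f (grey) and 3 Pdcd1f/fLysMCre (red) TAM libraries, with points for libraries and bars for mean ± SD. The genotypes are apart for Cd80, at 3743 to 4047 against 5548 to 6145, and for Icosl, at 463.7 to 492.9 against 292.4 to 316.4, and they overlap for Pdcd1lg2.

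Among the PD-1 ligand genes, Cd274 (ENSMUSG00000016496, chr19:29367455-29388095, plus strand, GRCm38) had 6890, 6639 and 6920 normalized counts in the controls, and the Pdcd1f/fLysMCre libraries had 7780, 8082 and 7874. All 3 Pdcd1f/fLysMCre libraries lay above all 3 controls, with means of 6816 ± 154 and 7912 ± 154 (SD, n = 3). The log2 fold change was 0.22 (SE 0.06, 95% interval 0.09 to 0.34), and the edgeR adjusted p of 0.0531 was just outside the threshold. It passed in 6 of 15 alternative settings, and the adjusted p over these ranged from 0.00517 to 0.262. With offsets for GC content and length the log2 fold change was 0.14, the lowest over the settings, and it passed there (edgeR adjusted p = 0.0289). The exons of Cd274 share 511 bases with an antisense gene, AC119228.1, and whether reads were counted by strand is not given in the sources used here.

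Pdcd1lg2 (ENSMUSG00000016498, chr19:29410919-29471161, plus strand) lies 22.82 kb beyond Cd274 and was the least abundant of the 10 genes. It had 57, 43 and 31 raw counts in Pdcd1f/f and 59, 59 and 51 in Pdcd1f/fLysMCre libraries, or 52.9, 48.0 and 34.0 against 54.6, 56.2 and 50.1 normalized counts. The genotypes overlapped, since Pdcd1f/f replicate 1 was above Pdcd1f/fLysMCre replicate 3. A log2 fold change of 0.25 had an interval from -0.27 to 0.77 (edgeR adjusted p = 0.544), so a change of the size of that of Cd80 could not be told from none at these counts. The protein-coding neighbors of the pair were Plgrkt, 0.065 kb before Cd274, with a log2 fold change of 0.09 (edgeR adjusted p = 0.546), and Ric1 and Ermp1 beyond Pdcd1lg2, with 0.14 (edgeR adjusted p = 0.215) and 0.11 (edgeR adjusted p = 0.366). Rln1, the next gene before Plgrkt, had 0 counts in every library.

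The CD28 and CTLA-4 ligand genes were both higher in every Pdcd1f/fLysMCre library, and Cd80 alone of them passed the test. Cd80 (ENSMUSG00000075122, chr16:38455561-38496335, plus strand) had 4047, 3743 and 3854 normalized counts in Pdcd1f/f libraries and 5548, 6145 and 5602 in Pdcd1f/fLysMCre libraries. The means were 3881 ± 154 and 5765 ± 330 (SD, n = 3), a 1.49-fold difference (95% interval of the fitted fold 1.34 to 1.65). Its log2 fold change was 0.57 (SE 0.07, edgeR adjusted p = 9.27e-04). It passed in all 15 alternative settings, with log2 fold changes of 0.47 to 0.60, the lowest with the GC and length offsets.

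Cd86 (ENSMUSG00000022901, chr16:36603869-36666081, minus strand) lies 1.789 Mb from Cd80 on the same chromosome. Its normalized counts were 6809, 6248 and 5778 in Pdcd1f/f and 7300, 8000 and 7118 in Pdcd1f/fLysMCre libraries. The genotypes did not overlap, but the controls spread over a wider range (SD 516) than those of Cd80 (SD 154). For Cd86 the log2 fold change was 0.25 (SE 0.08, interval 0.08 to 0.42, edgeR adjusted p = 0.0795). Cd86 passed in 6 of 15 alternative settings, among them DESeq2 (adjusted p = 0.0335) and the GC and length offsets, where the log2 fold change was 0.17 (edgeR adjusted p = 0.00662). The intervals of Cd86 and Cd80 did not overlap, with the upper bound of 0.42 for Cd86 and the lower bound of 0.43 for Cd80, and the difference itself was not tested. Dendritic cells also express both genes, and the log2 fold changes of their 6 tested markers, given above, ran from -0.26 to 0.69. Their part in the results on Cd80 and Cd86 was not tested.

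Icosl, which encodes the ligand of the T cell costimulator ICOS, fell. Icosl (ENSMUSG00000000732, chr10:78069302-78083913, plus strand) had 485.0, 463.7 and 492.9 normalized counts in Pdcd1f/f libraries and 316.4, 292.4 and 314.6 in Pdcd1f/fLysMCre libraries. The highest Pdcd1f/fLysMCre library was well below the lowest control, and the means of 481 ± 15.1 and 308 ± 13.4 (SD, n = 3) gave a ratio of 0.641. For Icosl the log2 fold change was -0.64 (SE 0.10, interval -0.85 to -0.43, edgeR adjusted p = 0.00393), and it lay between -0.66 and -0.59 in the 15 alternative settings, past the threshold in each. Icosl is on the chromosome of Lyz2, 39.2 Mb from it.

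Of the other B7 family genes, Cd276 (B7-H3, ENSMUSG00000035914, chr9:58524298-58555437, minus strand), best known from tumor and stromal cells, had 2367, 2527 and 2573 normalized counts in Pdcd1f/f and 2952, 2814 and 2957 in Pdcd1f/fLysMCre libraries. All Pdcd1f/fLysMCre libraries were above the controls, with a log2 fold change of 0.23 (SE 0.07, edgeR adjusted p = 0.0718). Cd276 passed in 4 of 15 alternative settings, among them DESeq2 (adjusted p = 0.0306) and the GC and length offsets, where the log2 fold change was 0.34 (edgeR adjusted p = 1.85e-04). Its exons share 416 bases with Gm10657 on the opposite strand. The 6 fibroblast and fibrosarcoma markers summed to 61.6 to 66.7 CPM in Pdcd1f/f and 57.2 to 63.6 CPM in Pdcd1f/fLysMCre libraries, most of it from Dcn and Col3a1, and their part in the result on Cd276 was not tested. Of these markers 5 were tested and 1 passed, against 2.42% higher and 3.01% lower over all genes tested. Col1a2, a collagen chain, fell, with a 95% interval of -1.41 to -0.59 for its log2 fold change (edgeR adjusted p = 0.0121). The others did not pass, with log2 fold changes of -0.78 for Col1a1, -0.42 for Pdgfrb, -0.07 for Col3a1 and 0.03 for Dcn.

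Vsir, which encodes the inhibitory molecule VISTA, was lower in every Pdcd1f/fLysMCre library but did not pass the test. Vsir (ENSMUSG00000020101, chr10:60346851-60372684, plus strand) had 12103, 14317 and 15382 normalized counts in Pdcd1f/f libraries and 11657, 10584 and 11880 in Pdcd1f/fLysMCre libraries. The genotypes did not overlap, but Pdcd1f/f replicate 1 was close to Pdcd1f/fLysMCre replicate 3, and the control SD was 1673. For Vsir it was -0.29 on the log2 scale (SE 0.09, interval -0.49 to -0.09, edgeR adjusted p = 0.0843). It passed in 6 of 15 alternative settings, among them DESeq2 (adjusted p = 0.0271), the GC and length offsets (edgeR adjusted p = 0.00294) and the fit without Pdcd1f/f replicate 1, where it was -0.39 (edgeR adjusted p = 0.00257). Vsir is also on chromosome 10, 56.9 Mb from Lyz2.

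**Figure D2:**
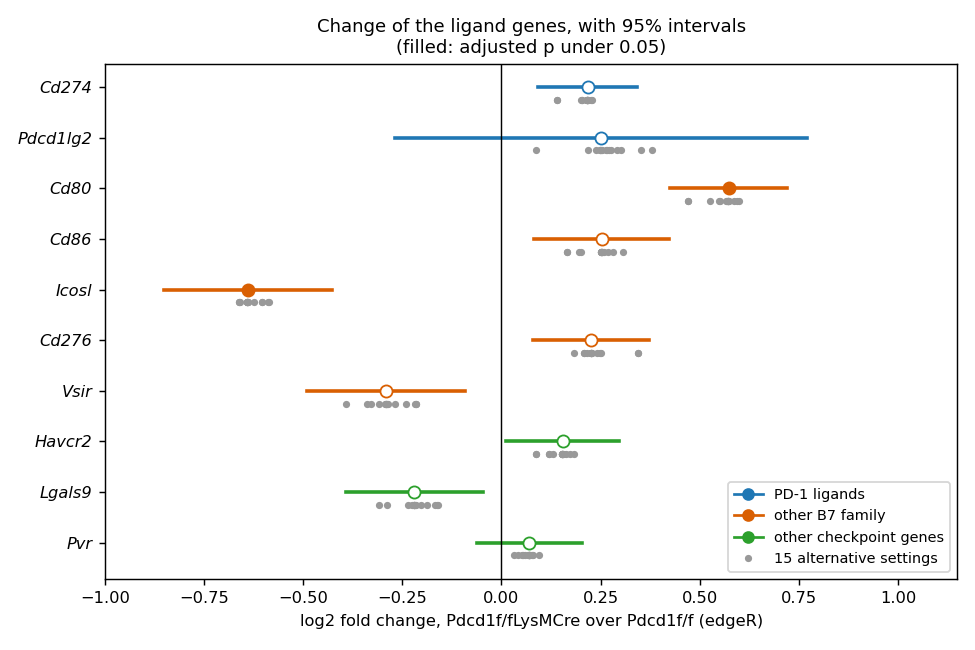
The log2 fold change (x axis) of each ligand gene, Pdcd1f/fLysMCre over Pdcd1f/f, with its 95% interval as a line and the values in 15 alternative settings as grey points below it. Filled circles mark the genes past the threshold, Cd80 at 0.57 and Icosl at -0.64, and no gene changed sign in any setting.

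None of the further checkpoint genes passed the test. Havcr2 (TIM-3, ENSMUSG00000020399, chr11:46454935-46481255, plus strand), a receptor that myeloid cells also carry, had 5788, 5775 and 5398 normalized counts in Pdcd1f/f and 6293, 6586 and 5972 in Pdcd1f/fLysMCre libraries. Its log2 fold change was 0.15 (SE 0.06, interval 0.01 to 0.30, edgeR adjusted p = 0.176). Lgals9 (ENSMUSG00000001123, chr11:78962974-78984946, minus strand) encodes galectin-9, a ligand of TIM-3. Lgals9 had 5721, 6719 and 6933 normalized counts in Pdcd1f/f libraries and 5584, 5410 and 5614 in Pdcd1f/fLysMCre libraries. The receptor was thus higher and the ligand lower in every Pdcd1f/fLysMCre library. The log2 fold change of Lgals9 was -0.22 (SE 0.08, edgeR adjusted p = 0.122) and, without Pdcd1f/f replicate 1, -0.31 (edgeR adjusted p = 0.00474), 1 of 4 alternative settings of 15 in which it passed. Pvr (CD155, ENSMUSG00000040511, chr7:19903578-19921160, minus strand), the ligand of TIGIT and CD226, differed least among the 10, with 4855, 5108 and 5252 against 5337, 5259 and 5355 normalized counts. The interval of its log2 fold change of 0.07 ran from -0.06 to 0.20 (edgeR adjusted p = 0.503).

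Set against Cd274 within each library, the ratios of 5 of the other 9 genes did not overlap between the genotypes, against 44.9% of all other genes tested. The background of these ratios is not 0: since Cd274 itself was higher in Pdcd1f/fLysMCre TAMs, the median log2 ratio of 14448 genes to it was lower there, with a difference of -0.22. Cd80 stood at 0.587, 0.564 and 0.557 of the normalized count of Cd274 in Pdcd1f/f libraries and at 0.713, 0.760 and 0.712 in Pdcd1f/fLysMCre libraries. Icosl went from 0.0704, 0.0698 and 0.0712 to 0.0407, 0.0362 and 0.0400, and Vsir from 1.76, 2.16 and 2.22 to 1.498, 1.310 and 1.509. The mean log2 ratio was thus 0.35 higher for Cd80 and fell by 0.86 for Icosl and by 0.50 for Vsir, with no overlap of the genotypes. For Lgals9 and Pvr the ratios also did not overlap, with differences of -0.43 and -0.15. That of Pvr is nearer 0 than the median of all genes, and Pvr itself was higher in every Pdcd1f/fLysMCre library. For Cd86, Cd276, Havcr2 and Pdcd1lg2 the ratios overlapped, with differences of 0.04, 0.01, -0.06 and 0.06, and overlap of so few values does not show that a ratio was the same. These ratios compare counts and not molecules, since the lengths of the genes differ, and they are given as a description with no test.

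**Figure D3:**
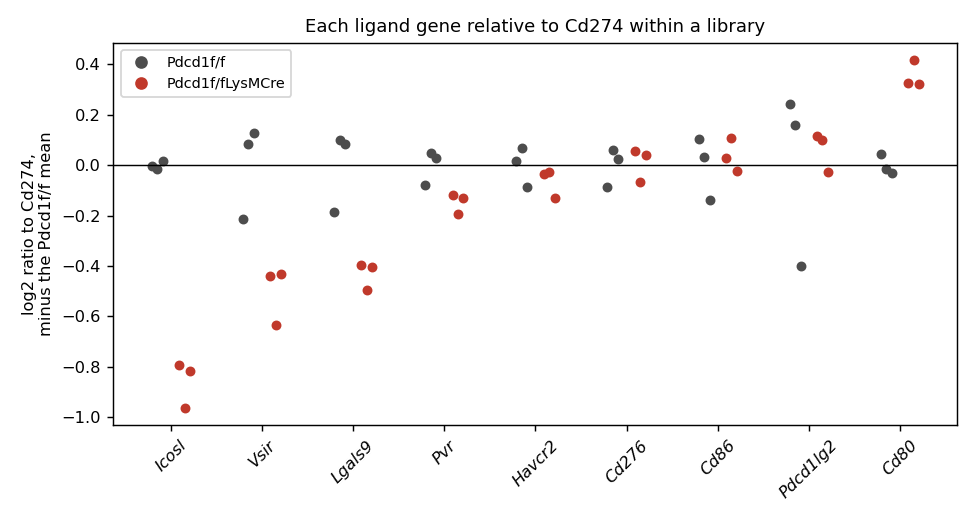
The log2 ratio of each ligand gene to Cd274 in the same library (y axis), minus the Pdcd1f/f mean, with 1 point for each of 3 Pdcd1f/f (grey) and 3 Pdcd1f/fLysMCre (red) libraries. Icosl, Vsir, Lgals9 and Pvr lie below the controls and Cd80 lies above them, the other 4 genes overlap, and the median difference of all genes was -0.22.

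Levels were compared between genes as TPM, in which counts are divided by the length of the union of exons and scaled to the same total in each library. In Pdcd1f/f TAMs Lgals9 was highest at 212 ± 17.3 TPM (SD, n = 3), followed by Vsir at 194 ± 19.5, Havcr2 at 146 ± 8.50, Cd274 at 132 ± 3.91 and Cd86 at 120 ± 12.4. Cd80 at 73.5 ± 4.11, Pvr at 58.0 ± 1.12 and Cd276 at 47.7 ± 1.18 came next, and Icosl at 7.29 ± 0.241 and Pdcd1lg2 at 1.61 ± 0.382 TPM were far lower. Neighbors in this order that overlapped were Lgals9 with Vsir, Havcr2 with Cd274, and Cd274 with Cd86. Of the PD-1 ligand genes, Cd274 thus stood far above Pdcd1lg2 in every library.

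In Pdcd1f/fLysMCre TAMs the levels of the upper 5 genes lay closer together, from 185 ± 3.48 TPM for Lgals9 through 164 ± 8.04 for Havcr2, 162 ± 9.62 for Vsir and 156 ± 3.75 for Cd274 to 145 ± 9.36 for Cd86. Havcr2 with Vsir, Vsir with Cd274, and Cd274 with Cd86 overlapped. Cd80 kept its sixth place at 111 ± 6.73 TPM. Pvr at 61.9 ± 0.604, Cd276 at 56.6 ± 1.47, Icosl at 4.74 ± 0.194 and Pdcd1lg2 at 1.95 ± 0.111 TPM followed. The order depended on the length used: with the longest transcript of each gene, Cd86 at 134 TPM stood above Havcr2 at 112 and Cd274 at 102, and Pvr at 94.1 above Cd80 at 66.0, in Pdcd1f/f TAMs.

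**Figure D4:**
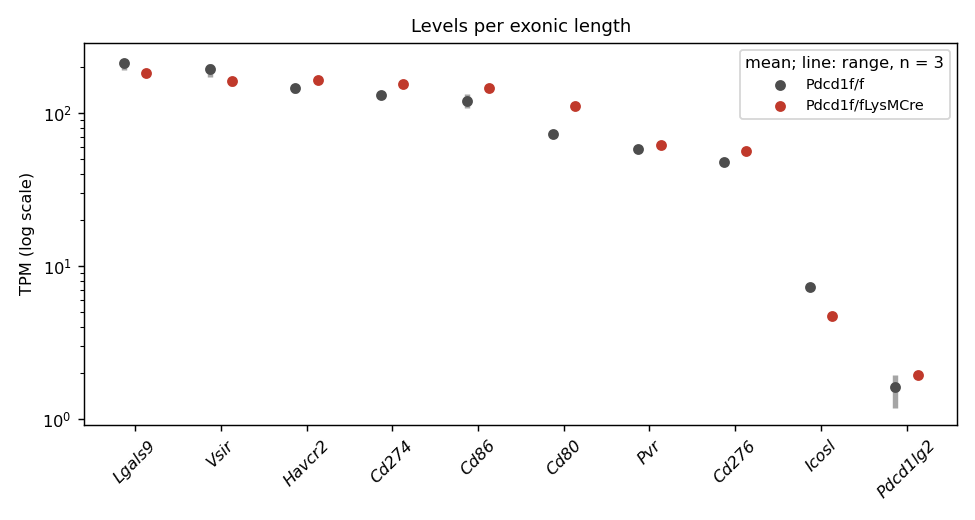
Mean level of the ligand genes in TPM (y axis, log scale) in Pdcd1f/f (grey) and Pdcd1f/fLysMCre (red) TAMs, with lines for the range of 3 libraries. Lgals9 at 212 TPM and Pdcd1lg2 at 1.61 TPM mark the ends of the order in Pdcd1f/f TAMs.

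The genes whose pattern was most like that of Cd80 over the 6 libraries, by Pearson's r of log2(CPM + 1), were Mex3c (0.9997), Il7r (0.9992) and Errfi1 (0.9987). For Cd274 they were Cadm1 (0.9990), Sept11 (0.9971) and Il7r (0.9960). Il7r, the receptor for interleukin 7, was in both groups. These values describe 6 libraries of 2 genotypes and were not tested.

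The partners of these ligands and the genes that regulate PD-L1 were examined as 4 lists, of which 63 genes were tested and 9 passed the threshold, 4 higher and 5 lower (over all genes tested 5.43% passed, 2.42% higher and 3.01% lower), with a median log2 fold change of 0.0027. Among 14 T cell side receptors and partners 10 were tested and none passed (median 0.10). Ctla4, whose product competes with CD28 for CD80 and CD86, had 6, 18 and 11 raw counts in Pdcd1f/f and 22, 33 and 24 in Pdcd1f/fLysMCre libraries (edgeR adjusted p = 0.191). Levels within this list differed widely, with Ctla4 at 0.377 TPM and Tnfrsf9 at 35.4 TPM in Pdcd1f/f TAMs, and the 7 T cell markers summed to 1.62 to 1.77 and 1.70 to 1.96 CPM. Of 27 other ligands and myeloid checkpoint genes 22 were tested, and 2 rose and 1 fell (median -0.03). Cd200, the ligand of an inhibitory myeloid receptor, rose from 1748, 1602 and 1549 to 2864, 3004 and 3008 normalized counts (log2 fold change 0.86, edgeR adjusted p = 1.04e-04). Ceacam1, an inhibitory adhesion molecule, rose by 0.59 on the log2 scale (SE 0.09, edgeR adjusted p = 0.00561). Siglece, an inhibitory sialic acid receptor, fell by 0.71 (SE 0.15, edgeR adjusted p = 0.0203). It passed in 2 of the 6 fits that leave out 1 library, with log2 fold changes of -0.82 to -0.58 over the 6.

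Of the 20 PD-L1 regulators 19 were tested, and 2 rose and 2 fell (median 0.02). Jak2, a kinase of the interferon-gamma receptor, rose by 0.25 on the log2 scale (edgeR adjusted p = 0.0484), and Hif1a, the hypoxia-inducible factor, by 0.27 (edgeR adjusted p = 0.042). Ifngr1, a chain of the interferon-gamma receptor, fell by 0.28 (edgeR adjusted p = 0.0254), and Irf1, the transcription factor through which interferon-gamma induces Cd274, fell by 0.36 (edgeR adjusted p = 0.0446). With 1 library left out at a time, Jak2 and Hif1a passed in 1 of 6 fits, the one without Pdcd1f/f replicate 1, and Ifngr1 and Irf1 in 2 of 6. Their log2 fold changes in these fits were 0.21 to 0.29 for Jak2, 0.22 to 0.31 for Hif1a, -0.32 to -0.26 for Ifngr1 and -0.44 to -0.30 for Irf1. Irf8 had a log2 fold change of -0.30 (edgeR adjusted p = 0.0519) and Cmtm6, which protects PD-L1 protein from degradation, had one of -0.09 (edgeR adjusted p = 0.415). Ptpn11, which encodes the phosphatase SHP-2 downstream of PD-1, had 4575, 4735 and 4775 against 4711, 4590 and 4755 normalized counts (edgeR adjusted p = 0.994).

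All 12 interferon-gamma response genes were tested, and none rose and 2 fell (median -0.04). Over all genes tested 2.42% passed as higher and 3.01% as lower. The libraries of the genotypes did not overlap for 2 genes with higher and 2 with lower values in Pdcd1f/fLysMCre TAMs, against 27.2% of all genes tested. Cxcl9, a chemokine that attracts T cells, fell from 2219, 2011 and 1927 to 1138, 1359 and 1160 normalized counts (log2 fold change -0.75, SE 0.09, edgeR adjusted p = 0.00122). Cxcl10 was higher in every Pdcd1f/fLysMCre library but did not pass (log2 fold change 0.21, edgeR adjusted p = 0.0693). It passed in 5 of 15 alternative settings. Psmb9, a subunit of the immunoproteasome, fell by 0.37 on the log2 scale (edgeR adjusted p = 0.0441). It passed in 1 of the 6 fits that leave out 1 library, with log2 fold changes of -0.47 to -0.31 over the 6.

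**Figure D5:**
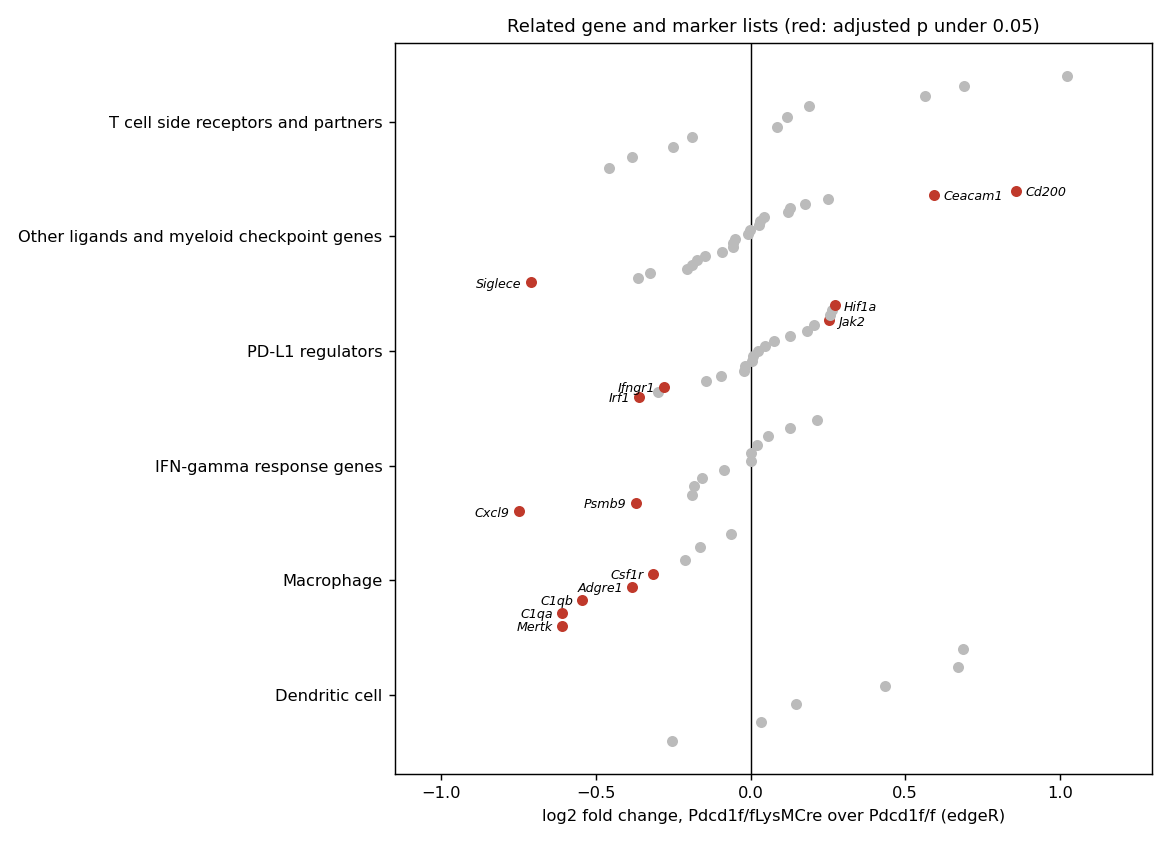
The log2 fold change (x axis) of each tested gene of 4 related lists and of the macrophage and dendritic cell markers, with 1 point per gene, and red with its name where the edgeR adjusted p was under 0.05. Of the 63 genes in the 4 related lists 4 rose and 5 fell, and 5 of the 8 macrophage markers fell, against 2.42% higher and 3.01% lower over all genes tested.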

How the data were processed

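RNA-seq of sorted TAMs was analyzed in 3 Pdcd1f/f and 3 Pdcd1f/fLysMCre libraries. The authors made stranded polyA libraries and paired-end reads of 42 nt. Per the submitters' processing notes and the methods, they used FastQC 0.11.5, Cutadapt 2.5, STAR 2.7.3a on GRCm38 and featureCounts (Subread 1.6.2) on Ensembl release 98. The authors deposited raw counts per gene and a table of 16552 genes whose signal is the count divided by a DESeq2 1.24.0 size factor of 0.895 to 1.08 (normalized counts). The strand setting and the handling of multi-mapped reads are not given in the sources used here.

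Raw counts were tested with edgeR 4.0.16 (R 4.3.3): filterByExpr (minimum count 10, minimum total 15), TMM, robust glmQLFit and two-sided glmQLFTest, with Benjamini-Hochberg adjustment over 14469 genes. The biological coefficient of variation was 8.92%. Symbols, lengths and positions came from GENCODE M21 (GRCm38), which gave symbols for 14461 tested genes. Scripts were tested on simulated data. Alternatives were RLE size factors, other count filters, DESeq2 1.42.0, limma-trend 3.58.1 on log2 values of the deposited table, the replicate block, GC and length offsets (loess span 0.5), each library left out, and 2 libraries left out together, the last chosen after seeing the data. The members and gene lists were chosen with earlier results of these data known. Named were all 10 members, Pdcd1, Lyz2, up to 4 genes past the threshold per related list, and Cmtm6, Jak2, Irf1, Irf8 and Ptpn11. A further gene under this rule is not reported here. Ctla4, Tnfrsf9, Cxcl10, Xist and the individual cell type markers were named after their values were seen. The summed levels of the other marker lists were 0.209 to 0.316 and 0.0598 to 0.175 CPM for NK cells, 0.0464 to 0.239 and 0.105 to 0.398 for B cells, 0.859 to 1.60 and 0.518 to 0.797 for neutrophils, 19.9 to 20.2 and 19.5 to 20.6 for endothelial cells, and 1.79 to 2.55 and 1.99 to 3.47 for epithelial cells, in Pdcd1f/f and Pdcd1f/fLysMCre libraries.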

Additional observations from a re-analysis of the deposited data

How the results depend on the processing

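No ligand gene changed direction in any of the 15 alternative settings. Of the 150 values of the 10 genes, 124 stayed on the same side of the threshold and 26 came to pass it, and Cd80 and Icosl passed throughout. The number of ligand genes past the threshold, 2, was 4 with all genes of at least 1 count, 6 with DESeq2, and 7 with GC and length offsets, with these offsets and the replicate block, and with Pdcd1f/f replicate 1 and Pdcd1f/fLysMCre replicate 2 left out together. In the same settings the 786 genes past the threshold over all genes became 1951, 1517, 2629, 2705 and 3757. They came from 26637, 26637, 14454, 14454 and 14354 genes tested, against 14469 in the main test. The counts with all genes of at least 1 count and with DESeq2 are thus out of a larger total. With 1 library left out at a time the ligand genes numbered 2 to 6 and all genes 222 to 3181, the lowest without Pdcd1f/fLysMCre replicate 1 and the highest without Pdcd1f/f replicate 1. The other counts over all genes that moved by over 1.5 times were 224 and 354 without Pdcd1f/f replicates 2 and 3 and 370 without Pdcd1f/fLysMCre replicate 2. The cause was not tested. The related genes past the threshold, 9, were 14 with DESeq2 and 10 with the replicate block. With the longest transcript as length, 5 of the 10 ligand genes kept their place in the level order.

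No statement of the labels or methods pairs the libraries by replicate number. The correlations of same-numbered libraries, in their deviations from the genotype means, were -0.0147, -0.0889 and 0.186. Those of differently numbered libraries ran from -0.224 to 0.209, and so few values cannot exclude a pairing. With the replicate block 1027 genes passed, among them 2 ligand genes. Depth limited Pdcd1lg2 and Pdcd1, which had at most 59 and 16 counts in a library.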
